A study of Mus musculus with 12 samples.

Results

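The genes encoding the subunits, activators and assembly chaperones of the proteasome were followed in OCY454 cells with and without an intact Piezo1 gene. Members were the rows of the count table whose symbol is Psma, Psmb, Psmc, Psmd, Psme, Psmf or Psmg followed by a number, which gave 48 of 32245 genes. Of these, 46 passed the filter on low counts and were among the 13772 genes tested. OCY454 is a mouse osteoblast and osteocyte line that is kept at 33 °C and differentiates when moved to 37 °C. The edited line (KO) had exons 19 to 21 of Piezo1, which encodes a mechanically gated cation channel, removed with CRISPR-Cas9, and the line without the edit is WT. Both lines were sampled 1, 14 and 28 days after the move to 37 °C, in alpha-MEM with serum, which gave 6 groups of 2 poly(A) RNA-seq libraries each. The labels do not say how many edited clones the KO line stands for, so a difference between clones and a difference between genotypes cannot be told apart. They also do not say that the 2 libraries of a group came from separate cultures, so p-values measure the spread between these libraries, which may be technical. Fewer cells of a kind and less RNA per cell cannot be told apart in bulk samples.

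Total counts ran from 8590067 to 15357427 per library, and the proteasome members took between 0.381% and 0.614% of them. Levels are given as CPM, the read count scaled to the library size, with sizes adjusted by the trimmed mean of M values (TMM). Differences are log2 fold changes ± standard error from edgeR's quasi-likelihood test, with Benjamini-Hochberg adjusted p over all genes tested, and a gene was called when its adjusted p was below 0.05. Piezo1 itself was counted at 206 to 242 CPM in the WT libraries. It was counted at 169 and 170 CPM in KO at day 1, 108 to 114 CPM at day 14 and 276 to 281 CPM at day 28. The deletion covers a small part of a long transcript, so the gene's count is a weak check of the label. Of the osteocyte markers, Sost stood at 0.343 to 1.30 CPM, Mepe at 0.495 to 2.20 CPM and Fgf23 at 0 to 0.131 CPM, at or near 0 in both lines. Dmp1 stood at 3.68 to 16.1 CPM, Phex at 2.97 to 11.4 CPM and Pdpn at 14.1 to 59.9 CPM.

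The 26S proteasome degrades proteins tagged with ubiquitin. Its 20S core is a barrel of alpha and beta subunits with the cutting sites inside, and the 19S particle at its end binds ubiquitin chains, removes them and unfolds the substrate with a ring of ATPases. Cells exposed to interferon replace the catalytic beta subunits Psmb6, Psmb7 and Psmb5 by the immunoproteasome subunits Psmb9, Psmb10 and Psmb8, and make more of the PA28 activator (Psme1 and Psme2). When proteasome activity is short, the transcription factor NFE2L1 raises the genes of the 20S and 19S subunits together through antioxidant response elements. In bone, proteasomes set the level of Runx2 and other regulators of osteoblast differentiation.

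Promoter stretches are shown because those 2 routes, NFE2L1 and interferon, are known to act on different subunits. They come from RefSeq windows (GRCm38.p6) that run from 250 bases before to 50 bases after a gene's start, and 40 of the 48 members had one. The motif in capitals is TGACNNNGC, a core of the antioxidant response element, for the first 4 genes, and GAAA and GAAA with any 2 bases between them, a core of the interferon-stimulated response element, for Psme1. Both strands were searched, and each stretch is written along the gene, so Psmc6, Psmd12 and Psme1 show the reverse complement of the motif.
Psmb5, chr14:54618023-54618052, minus strand: cgtgaagttgTGACGTCGCggcgttgccag
Psmb6, chr11:70525338-70525367, plus strand: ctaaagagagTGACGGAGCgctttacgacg
Psmc6, chr14:45329587-45329616, plus strand: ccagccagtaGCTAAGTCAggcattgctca
Psmd12, chr11:107479278-107479307, plus strand: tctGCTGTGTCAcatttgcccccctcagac
Psme1, chr14:55578493-55578522, plus strand: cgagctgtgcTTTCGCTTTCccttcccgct
TGACNNNGC stood in the windows of 6 of the 40 members, or 15%, and in 12.4% of all 32851 windows. The interferon-stimulated response element core stood in 5 of 40 (12.5%, against 3.44% of all windows). Besides Psme1 these were Psmb3, Psmd4, Psmd9 and Psmg4, none of them an immunoproteasome member, and 0 of the 3 immunoproteasome catalytic genes had it. TTCNNNGAA, a core of the interferon-gamma activated site (GAS), was also searched. It stood in 3 of 40 (7.5%, against 8.3% of all windows), namely Psmb8, Psmd2 and Psmg1. The match in Psmb8 was centred at position -93 from the start used for its window. A match is a description of the letters and not evidence of a bound site, and these motifs can overlap other sites.

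The question of the series is how loss of Piezo1 bears on osteocyte differentiation. Between the lines, the summed RNA of the standard 20S and 19S subunits was higher in KO at each day, most at day 14, while Psmb8 was lower. The 31 subunits of the 20S core and the 19S particle (the 14 alpha and beta subunits outside the immunoproteasome, 6 ATPases and 11 non-ATPases) summed to 3960 and 3833 CPM in the WT libraries of day 1, to 3191 and 3188 CPM on day 14 and to 3125 and 3232 CPM on day 28. In KO they summed to 5016 and 5024 CPM on day 1, to 5576 and 5484 CPM on day 14 and to 3702 and 3813 CPM on day 28. The lines did not overlap at any day, and the gap between the sums was widest at day 14. Such sums weigh abundant genes most. Of the 31 genes, 21, 30 and 21 were called higher in KO at days 1, 14 and 28, and 0, 1 and 2 lower. The shares higher were 67.7%, 96.8% and 67.7%, against 19.5%, 23.8% and 19.8% over all genes tested. The shares lower were 0%, 3.23% and 6.45%, against 20.8%, 25.9% and 21.2%. At days 1 and 28, 10 and 8 of the 31 were not called.

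At day 14, 33 of the 46 members tested were called higher in KO and 5 lower (Psmb8, Psme1, Psme2, Psmd8 and Psmg3), with a median log2 fold change of 0.55. Over all genes tested, 23.8% were called higher and 25.9% lower, with a median of -0.02. At day 1, 25 members were called higher and 3 lower (Psmb8, Psmd9 and Psmg1), with a median of 0.23, against 19.5% higher and 20.8% lower over all genes. At day 28, 25 were called higher and 5 lower (Psmb8, Psmd8, Psmd9, Psme1 and Psmd2), with a median of 0.20, against 19.8% higher and 21.2% lower over all genes. The split at day 28 was 15 higher and 6 lower without KO D28 replicate 2, and 14 higher and 3 lower when only the libraries compared were fitted. With library totals in place of TMM factors it was 13 higher and 8 lower, and the median of all genes tested was then -0.09. The shares of members called higher, 54.3% at day 1, 71.7% at day 14 and 54.3% at day 28, were above the shares over all genes, and the shares called lower, 6.52%, 10.9% and 10.9%, were below them. In 39 of the 46 members the 2 KO libraries lay wholly above or below the 2 WT libraries at day 14, and the number was 39 also at day 1 and at day 28. Over all genes tested, the lines did not overlap in 73.2%, 76.4% and 64.7% at days 1, 14 and 28, so non-overlap was common among all genes too. Of all genes, 40.3%, 49.7% and 41% were called in either direction.

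**Figure D1:**
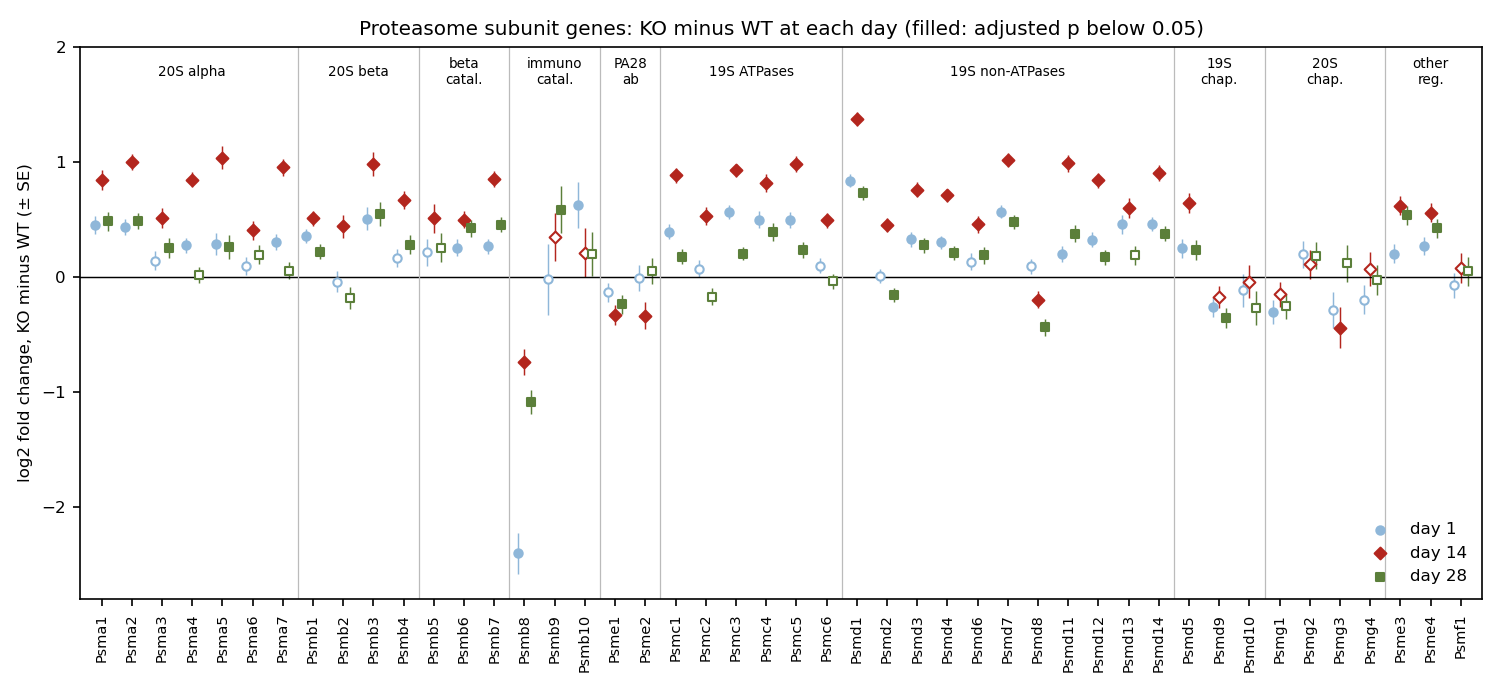
Log2 fold change (KO minus WT, ± SE) of the 46 members tested, grouped by role along the x axis, at day 1 (circles), day 14 (diamonds) and day 28 (squares), with filled symbols for adjusted p below 0.05. The day 14 symbols of the 20S and 19S subunits lie above 0 apart from Psmd8, and Psmb8 lies lowest of all members at each day.

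Calls were also counted apart for the 5 immunoproteasome members and the other 41. Over all genes tested, 19.5%, 23.8% and 19.8% were called higher in KO at days 1, 14 and 28, and 20.8%, 25.9% and 21.2% lower. Of the 41, 24, 33 and 24 were called higher in KO at days 1, 14 and 28, and 2, 2 and 3 lower. These were 58.5%, 80.5% and 58.5% higher and 4.88%, 4.88% and 7.32% lower. Of the 5, Psmb10 was called higher at day 1 and Psmb9 at day 28, and 1, 3 and 2 were called lower at the 3 days. These were 20%, 0% and 20% higher and 20%, 60% and 40% lower. Both shares of the 5 at day 1, and the share higher at day 28, lay near those over all genes. At day 14 the median log2 fold change was 0.62 for the 41 and -0.33 for the 5, with 2 of the 5 above 0. The set of 5 is small and was not tested as a set.

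The alpha ring of the 20S core forms the gate of the barrel. All 7 alpha genes, Psma1 to Psma7, were called higher in KO at day 14. Psma5 stood at 38.2 and 35.9 CPM in the WT libraries of day 1, at 34.1 and 30.1 CPM on day 14 and at 25.0 and 29.3 CPM on day 28. In KO it stood at 45.0 and 45.3, 68.8 and 63.6, and 29.9 and 34.8 CPM. The KO libraries at day 14 were the highest of the 12, and the lines were closest at day 28. The fold change of Psma5 at day 14 was 1.04 ± 0.10 (adjusted p = 2.82e-08). Psma7 stood at 87.6 and 94.1 CPM in WT and 175 and 176 CPM in KO at day 14 (0.95 ± 0.07, adjusted p = 8.73e-10). At day 28 Psma7 stood at 74.5 and 70.4 CPM in WT and 73.0 and 77.6 CPM in KO, so the groups overlapped (0.06 ± 0.08, adjusted p = 0.581). Psma2 at day 14 stood at 76.1 and 75.9 CPM in WT and 158 and 146 CPM in KO (1.00 ± 0.07, adjusted p = 3.7e-10).

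The beta ring holds the cutting sites. Psmb6 carries the beta1 site, Psmb7 the beta2 site and Psmb5 the beta5 site, which cut after acidic, basic and hydrophobic residues. Psmb7 stood at 93.1 and 91.3 CPM in the WT libraries of day 1, at 77.2 and 74.0 CPM on day 14 and at 72.9 and 77.2 CPM on day 28. In KO it stood at 111 and 111, 134 and 140, and 103 and 103 CPM. All 6 KO libraries were above all 6 WT libraries. Psmb7 was called higher in KO at day 1 by 0.27 ± 0.06 (adjusted p = 0.00201), at day 14 by 0.85 ± 0.07 (adjusted p = 1e-09) and at day 28 by 0.45 ± 0.07 (adjusted p = 1.03e-05).

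Psmb6 stood at 83.2 and 76.8, 79.6 and 79.7, and 70.8 and 65.5 CPM in WT at the 3 days, and at 95 and 96.1, 114 and 111, and 87.1 and 95.5 CPM in KO. Again every KO library was above every WT library. The difference for Psmb6 was 0.26 ± 0.07 at day 1, 0.50 ± 0.07 at day 14 and 0.42 ± 0.07 at day 28 (adjusted p = 0.0061, 7.47e-06 and 7.93e-05). The day 1 call was lost without WT D1 replicate 2 (0.21, adjusted p = 0.0805) and without KO D1 replicate 2 (0.25, adjusted p = 0.0528). Over the 18 alternatives the adjusted p at day 1 ran from 2.03e-05 to 0.0805. Psmb5 stood at 15.6 and 16.3, 13.2 and 14.8, and 12.6 and 13.7 CPM in WT, and at 19.0 and 18.2, 19.0 and 20.7, and 16.2 and 15.3 CPM in KO. Psmb5 was called higher in KO at day 14 (0.51 ± 0.13, adjusted p = 0.00205). At day 1 it differed by 0.22 ± 0.12 (adjusted p = 0.151) and at day 28 by 0.26 ± 0.12 (adjusted p = 0.106), which did not pass, although the libraries of the lines did not overlap at either day.

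In the 19S particle, 16 of 17 ATPases and non-ATPases were called higher in KO at day 14. Psmd1, a large scaffold subunit of the 19S base, had the highest fold change of all members. Psmd1 stood at 412 and 408 CPM in the WT libraries of day 1, at 293 and 297 CPM on day 14 and at 302 and 315 CPM on day 28. In KO it stood at 734 and 732, 783 and 749, and 513 and 509 CPM. The lowest KO library was above the highest WT library. Psmd1 was higher in KO by 0.84 ± 0.06, 1.38 ± 0.06 and 0.73 ± 0.06 at the 3 days (adjusted p = 2.79e-10, 1.21e-13 and 3.75e-09). Exons of 11 members overlap exons on the opposite strand, and with the strand setting of the counting not given, reads of such pairs cannot be told apart there. Exons of Psmd1 share 252 of their 7265 bases with Htr2b on the opposite strand and 301 with Gm21972 on the same strand.

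Psmd7, a subunit of the 19S lid, stood at 140 and 135 CPM in WT and 275 and 282 CPM in KO at day 14 (1.02 ± 0.06, adjusted p = 2.23e-11). Psmd11, another lid subunit, stood at 59.2 and 53.3 CPM in WT and 115 and 109 CPM in KO at day 14 (0.99 ± 0.07, adjusted p = 4.58e-10). The ATPase genes Psmc1 to Psmc6 were all called higher at day 14, from 0.49 ± 0.07 for Psmc6 to 0.98 ± 0.07 for Psmc5. Psmd1, Psma5, Psmd7 and Psma2 were the 4 members that differed by more than 2-fold at day 14 in either direction.

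Psmd8, a lid subunit, was the exception among the 31. It stood at 127 and 122, 78.6 and 88.4, and 91.7 and 96.8 CPM in WT, and at 131 and 135, 69.7 and 75.5, and 69.6 and 69.4 CPM in KO. The lines lay close at day 1, and both KO libraries lay below both WT libraries at days 14 and 28. Psmd8 differed by 0.09 ± 0.07 at day 1 (adjusted p = 0.305), -0.20 ± 0.08 at day 14 (adjusted p = 0.0351) and -0.44 ± 0.07 at day 28 (adjusted p = 5.46e-05). The day 14 call of Psmd8 was lost without WT D1 replicate 1 or 2 (-0.19, adjusted p = 0.055 for each), WT D14 replicate 2 (-0.11, adjusted p = 0.322) or KO D14 replicate 1 (-0.14, adjusted p = 0.25). It was also lost with no low-count filter and with DESeq2, and over the 18 alternatives its adjusted p ran from 0.0121 to 0.322. Psmd2, a scaffold subunit of the base, was called higher in KO at day 14 (0.45 ± 0.06, adjusted p = 2.69e-06) and lower at day 28 (-0.16 ± 0.06, adjusted p = 0.0444). The day 28 call was lost with DESeq2 (adjusted p = 0.0613), with no low-count filter (0.107) and when only the libraries compared were fitted (0.253). The day 28 value was not called with 10 of the 12 libraries left out in turn, every one but WT D28 replicate 1 and KO D28 replicate 2, and ran from -0.25 to -0.11 and from adjusted p = 0.00305 to 0.258 over the alternatives.

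Of the 31 subunits, 18 were called higher in KO at all 3 days, and 30 had their highest log2 fold change at day 14. The shares of all genes with these 2 patterns were not counted. The changes between days were then taken within each line. From day 1 to day 14 in WT, 27 of the 46 members fell and 3 rose, with a median log2 fold change of -0.24, where 15.9% of all genes tested were called lower and 18.2% higher. The 3 that rose were Psmb8, Psmb9 and Psme2. From day 1 to day 14 in KO, 16 members rose and 2 fell, with a median of 0.13, where 19.4% of all genes were called higher and 18% lower. The count for KO was 28 when only the libraries compared were fitted and 11 without KO D14 replicate 1.

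From day 14 to day 28 the fall was in KO. In that line, 32 of the 46 members fell and 3 rose, with a median of -0.44, where 25.1% of all genes were called lower, 25.6% higher and 50.7% in either direction. In WT, 7 fell and 4 rose, with a median of -0.01, where 16.8% of all genes were called lower and 17.9% higher. The share of WT members called over these days, 23.9%, was below the share of all genes called in either direction, 34.7%. The WT count of 11 was 7 with DESeq2, 7 without WT D14 replicate 1, 6 without WT D14 replicate 2 and 6 when only the libraries compared were fitted. Of the 46 members, 22 fell both in WT from day 1 to day 14 and in KO from day 14 to day 28. With 27 and 32 falling in the single comparisons, many would fall in both by those numbers alone. The share of all genes that fell in both was not counted, so the 22 is a description.

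**Figure D2:**
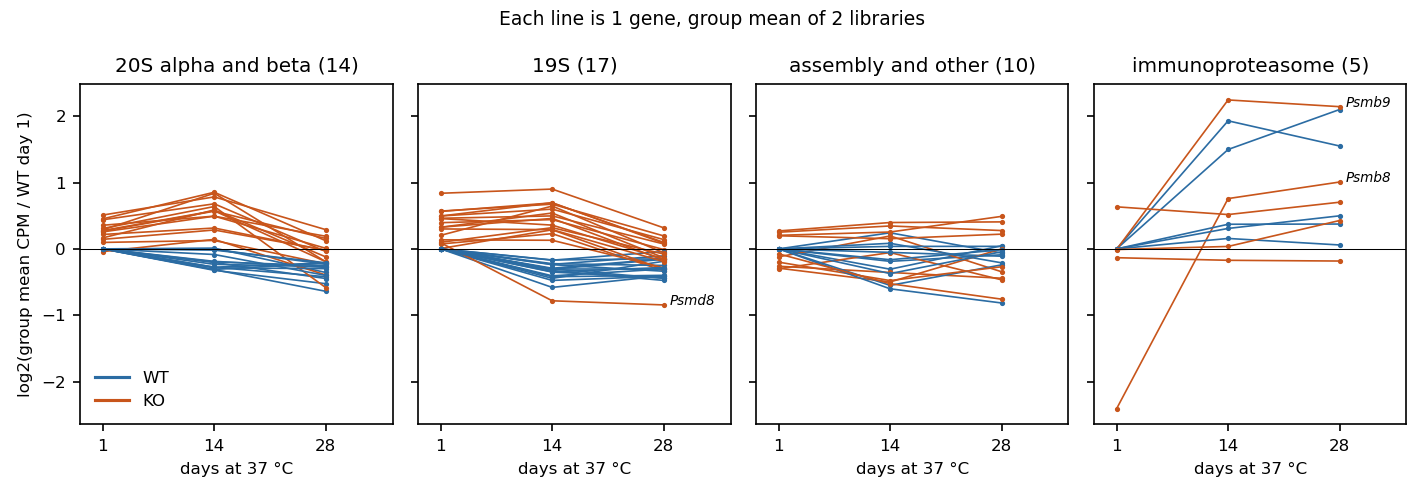
Log2 ratio of each member's group mean CPM to its WT day 1 mean, against days at 37 °C, with 1 thin line per gene for WT (blue) and KO (orange), in panels by role. Of the 31 genes of the 20S and 19S panels, 23 fell in WT and 14 rose in KO from day 1 to day 14. From day 14 to day 28, 30 fell in KO. Psmb8 climbs in both lines from a low KO start, though its KO change after day 14 was not called.

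The difference between the lines in the change from day 1 to day 14 was tested as an interaction. It was called higher in KO for 28 of the 46 members and lower for 0 (edgeR; 1, Psmd8, at an unadjusted p below 0.05, and 0 with DESeq2), with a median of 0.39, where 9.19% of all genes tested were called higher and 9.65% lower. The change from day 14 to day 28 was called lower in KO for 26 members and higher for 0 (edgeR; 2, Psme2 and Psmg3, at an unadjusted p below 0.05, and 0 with DESeq2), with a median of -0.39, where 11.5% of all genes were called lower and 12.6% higher. Among the 31 subunits of the core and the 19S particle, 23 were called higher in the first of these and lower in the second. These comparisons share the day 14 libraries of both lines with opposite sign, so a deviation at day 14 pushes a gene toward both calls. The share of all genes with both calls was not counted. Psmd11 differed by 0.78 ± 0.10 in the first (adjusted p = 1.07e-05) and -0.61 ± 0.10 in the second (adjusted p = 0.000145). Psma7 fell in KO from day 14 to day 28 by 1.22 ± 0.07 (adjusted p = 1.29e-11), the steepest fall among the members called in any change between days.

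Psmb8, the immunoproteasome form of beta5, went the other way. It lies on chromosome 17 between 34197721 and 34201454 on the plus strand (GRCm38, GENCODE vM21), 495 bases from the end of Tap1 and 9956 bases from Psmb9, within the major histocompatibility complex. Psmb8 stood at 13.9 and 14.2 CPM in the WT libraries of day 1, at 39.6 and 39.7 CPM on day 14 and at 65 and 55.4 CPM on day 28. In KO it stood at 2.65 and 2.65, 23.4 and 24.1, and 25.1 and 31.4 CPM. Every KO library was below both WT libraries of its day. Behind the KO day 1 values were 31 and 36 counts, and behind the WT day 1 values 214 and 216.

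Psmb8 in KO was at 0.189 of the WT level at day 1 (-2.40 ± 0.18, adjusted p = 1.05e-09), 0.599 at day 14 (-0.74 ± 0.11, adjusted p = 1.62e-05) and 0.471 at day 28 (-1.09 ± 0.10, adjusted p = 5.01e-08). It rose from day 1 to day 14 in both lines, by 1.5 ± 0.12 in WT (adjusted p = 4.31e-09) and by 3.16 ± 0.17 in KO (adjusted p = 8.38e-12). The difference between these rises was 1.66 ± 0.22 (adjusted p = 1.68e-05), the only called difference of this kind among the 5 immunoproteasome members. From day 14 to day 28 Psmb8 rose in WT by 0.60 ± 0.10 (adjusted p = 0.000121) and changed in KO by 0.26 ± 0.12 (adjusted p = 0.0698), which did not pass. The difference between these 2 changes was -0.35 ± 0.16 (adjusted p = 0.114). The ratio of its highest to its lowest group mean, 22.7, was the largest of the members tested, followed by 4.76 for Psmb9 and 2.6 for Psmd1, with a median of 1.75. Exons of Psmb8 share 498 of their 3381 bases with Gm20496 on the opposite strand.

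**Figure D3:**
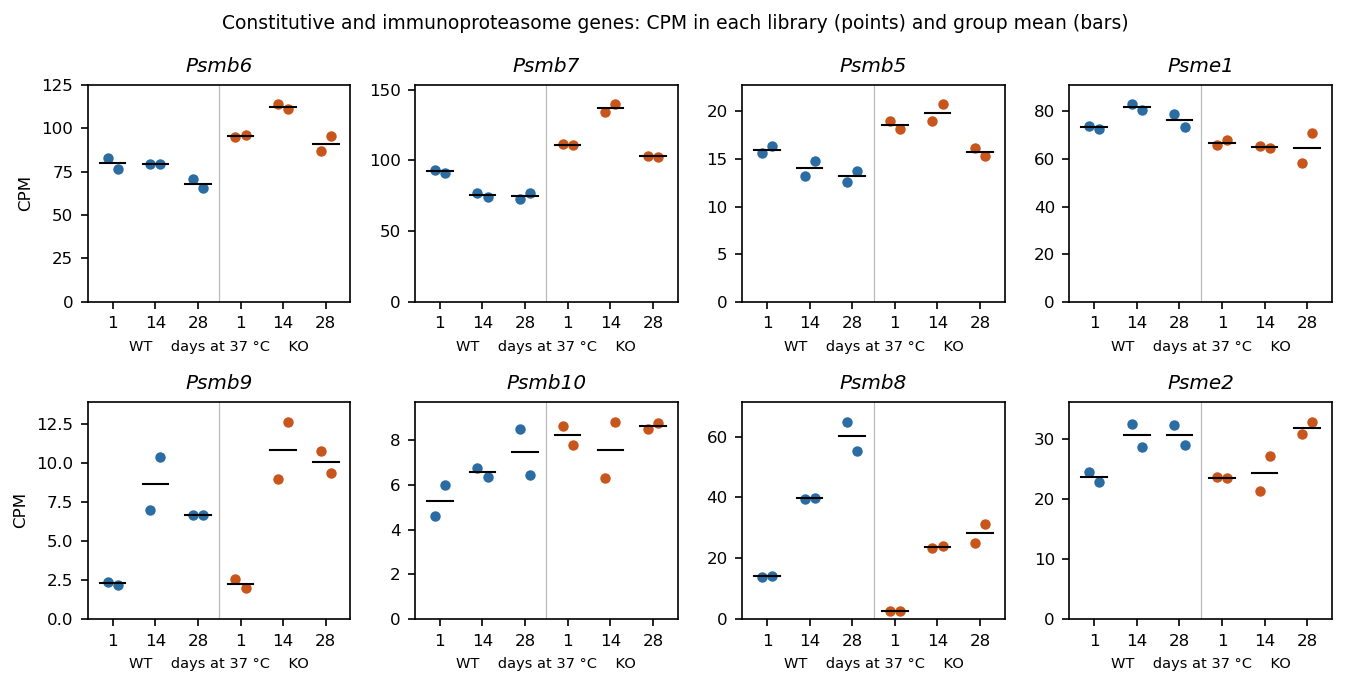
CPM of the 3 standard catalytic genes and the 5 immunoproteasome members in each of the 12 libraries (points), with the group mean as a bar, WT in blue and KO in orange, each y axis starting at 0. Psmb6 and Psmb7 are higher in every KO library than in every WT library, and Psmb8 is lower in KO at each day. The group mean of Psmb8 climbs with time in both lines, though its KO change after day 14 was not called.

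Psmb9, the immunoproteasome form of beta1, rose over the first 14 days in both lines and was not called between the lines at day 1, where its neighbour Psmb8 was called lower in KO. It stood at 2.41 and 2.17, 7 and 10.4, and 6.70 and 6.69 CPM in WT, and at 2.56 and 1.99, 8.97 and 12.7, and 10.8 and 9.37 CPM in KO. The lines overlapped at days 1 and 14, and the KO libraries were higher at day 28. The rise to day 14 was 1.90 ± 0.25 in WT (adjusted p = 5.64e-06) and 2.26 ± 0.25 in KO (adjusted p = 4.14e-07), and the difference between the rises was 0.37 ± 0.37 (adjusted p = 0.549). KO and WT differed by -0.02 ± 0.31 at day 1 (adjusted p = 0.971) and 0.35 ± 0.21 at day 14 (adjusted p = 0.175). At day 28 Psmb9 was called higher in KO by 0.59 ± 0.20 (adjusted p = 0.0262). The call was lost with library totals (adjusted p = 0.059), with DESeq2 (0.0689), without WT D28 replicate 1 (0.59, adjusted p = 0.0602) and without KO D28 replicate 1 (0.48, adjusted p = 0.14), and over the 18 alternatives the adjusted p ran from 0.00696 to 0.14. Exons of Psmb9 share 212 of their 3660 bases with Tap1 on the opposite strand.

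Psmb10, the immunoproteasome form of beta2, stood at 4.62 and 5.97, 6.74 and 6.36, and 8.51 and 6.44 CPM in WT, and at 8.63 and 7.80, 6.32 and 8.83, and 8.48 and 8.76 CPM in KO. Psmb10 was called higher in KO at day 1 (0.63 ± 0.20, adjusted p = 0.0155) and in no other of the 9 comparisons. That call was lost without WT D1 replicate 1 (0.46, adjusted p = 0.162) or KO D1 replicate 1 (0.57, adjusted p = 0.0986), within a range of 0.00121 to 0.162 over the 18 alternatives. At day 1, then, Psmb8 was called lower in KO, Psmb9 was not called and Psmb10 was called higher.

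Psme1 and Psme2 encode PA28 alpha and beta, which form a ring that opens the 20S core. Psme1 stood at 74.0 and 72.5, 83.0 and 80.4, and 79.1 and 73.6 CPM in WT, and at 65.8 and 67.8, 65.4 and 64.6, and 58.2 and 70.8 CPM in KO. The KO libraries lay below the WT libraries of the same day at each day. Psme1 was called lower in KO at day 14 by -0.33 ± 0.08 (adjusted p = 0.00249) and at day 28 by -0.24 ± 0.08 (adjusted p = 0.0237), and differed by -0.13 ± 0.08 at day 1 (adjusted p = 0.207). The day 28 call was lost without WT D28 replicate 1 (-0.18, adjusted p = 0.117), without KO D28 replicate 1 (-0.11, adjusted p = 0.332), with DESeq2 (-0.24, adjusted p = 0.05003) and when only the libraries compared were fitted (adjusted p = 0.13), in a range of 0.00193 to 0.332 over the alternatives.

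Psme2 stood at 24.5 and 22.8, 32.5 and 28.7, and 32.3 and 29.0 CPM in WT, and at 23.6 and 23.4, 21.3 and 27.2, and 30.7 and 32.9 CPM in KO. It was called lower in KO at day 14 only (-0.34 ± 0.12, adjusted p = 0.0226), and that call was lost with DESeq2 (adjusted p = 0.0522), without WT D14 replicate 1 (-0.24, adjusted p = 0.224) and without KO D14 replicate 1 (-0.18, adjusted p = 0.309). Over the alternatives its adjusted p ran from 0.00545 to 0.309. Psme2 rose in WT from day 1 to day 14 by 0.38 ± 0.11 (adjusted p = 0.0141), a call lost without WT D1 replicate 2 (0.33, adjusted p = 0.102) or WT D14 replicate 1 (0.28, adjusted p = 0.189). It rose in KO from day 14 to day 28 by 0.39 ± 0.11 (adjusted p = 0.00755), a call lost without KO D14 replicate 1 (0.23, adjusted p = 0.169) or KO D28 replicate 2 (0.34, adjusted p = 0.0646). The table also held a near-identical copy, Psme2b, with 6 to 22 counts per library, so reads could be split between them.

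The other activators, Psme3 and Psme4, were called higher in KO at each day. The day 1 call of Psme3 (0.20 ± 0.08, adjusted p = 0.0487) was lost without any 1 of the WT D1 or KO libraries (0.17 to 0.25), with library totals and with DESeq2, at adjusted p = 2.63e-05 to 0.243 over the alternatives. Psme3 encodes PA28 gamma, a nuclear activator, and stood at 123 and 108 CPM in WT and 186 and 171 CPM in KO at day 14 (0.62 ± 0.08, adjusted p = 2.79e-06). At day 28 Psme3 stood at 131 and 159 CPM in WT and 205 and 215 CPM in KO (0.54 ± 0.08, adjusted p = 1.85e-05). Psme4, which encodes the activator PA200, stood at 130 and 127 CPM in WT and 186 and 194 CPM in KO at day 14 (0.56 ± 0.08, adjusted p = 7e-06). Psmf1, an inhibitor of the 20S core, was not called between the lines at any day. It fell in WT from 23.3 and 23.6 CPM at day 1 to 15.2 and 15.7 CPM at day 14 (-0.60 ± 0.12, adjusted p = 0.000526).

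To set each standard catalytic gene against its immunoproteasome form, levels were divided by the exon length of the gene, and the immunoproteasome share of the pair was taken in each library. These shares are a description with no test. Psmb8 made up 19.2% and 18.7% of the beta5 pair in the WT libraries of day 1, 44.3% and 41.6% on day 14 and 57.8% and 51.8% on day 28. In KO it made up 3.58% and 3.73%, 24.7% and 23.6%, and 29.2% and 35.3%. The share was lower in both KO libraries than in both WT libraries at each day and climbed over time in both lines.

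Psmb9 made up 1.44% ± 0.0246 (SD, n = 2), 5.28% ± 1.39 and 4.79% ± 0.248 of the beta1 pair in WT, and 1.20% ± 0.223, 4.69% ± 1.16 and 5.38% ± 0.841 in KO. The libraries of the lines overlapped at days 14 and 28, and at day 1 the KO libraries lay just below the WT ones. Psmb10 made up between 8.66% and 19.0% of the beta2 pair over the 12 libraries. The 3 immunoproteasome genes together made up 8.27%, 18.3% and 24.7% of the catalytic total in WT and 5.64%, 10.5% and 14.4% in KO (means of 2 libraries). The size of the beta5 share depends on the length used, since Psmb8 has exons of 3381 bases in the union of its transcripts and 1628 bases in its principal transcript. With principal transcripts, a choice made after seeing the data, the beta5 share was 32.7%, 61.0% and 71.5% in WT and 7.30%, 39.8% and 49.6% in KO, in the same order between lines and days.

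**Figure D4:**
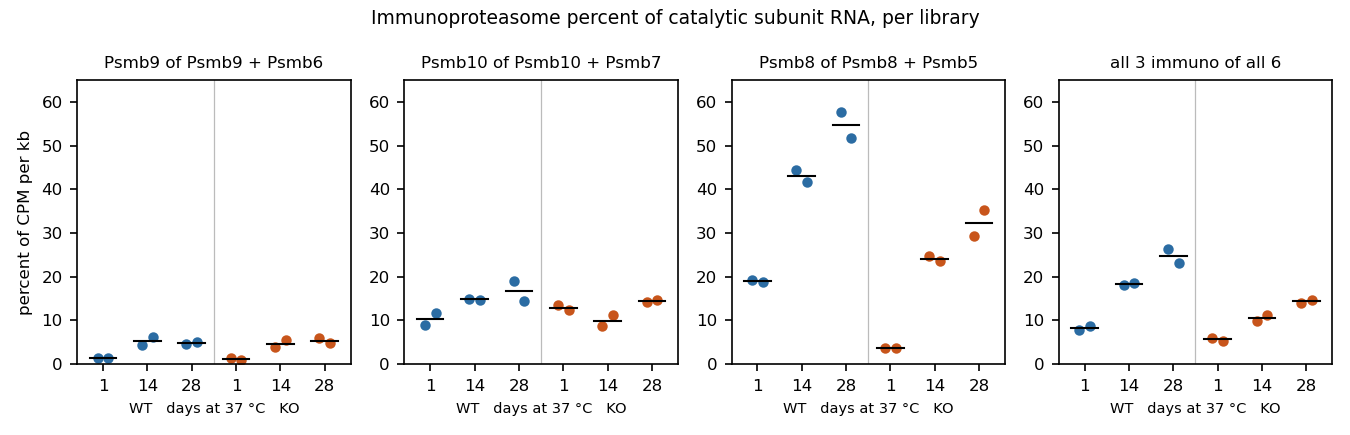
Immunoproteasome percent of each catalytic pair and of all 6 catalytic genes, as CPM per kilobase of exon, in each library (points) with the group mean (bars), WT in blue and KO in orange. The beta5 panel separates the lines at every day, from 3.58% and 3.73% in KO against 19.2% and 18.7% in WT at day 1, while the beta1 panel does not.

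The assembly chaperones gave mixed results between the lines. Psmg1 to Psmg4 join the alpha ring and leave the finished core, and Psmd5, Psmd9 and Psmd10 hold the 19S base before it docks. Over Psmg1 to Psmg4 and the 3 days, the 2 calls were lower values in KO, Psmg1 at day 1 (-0.30 ± 0.11, adjusted p = 0.0266) and Psmg3 at day 14 (-0.44 ± 0.18, adjusted p = 0.0436). The Psmg1 call was lost without any 1 of the 4 libraries of day 1 (-0.36 to -0.24) and ran from adjusted p = 0.00555 to 0.216 over the alternatives. The Psmg3 call was lost without any 1 of the 4 libraries of day 14 or the WT D1 replicates or KO D1 replicate 2 (-0.49 to -0.4) and ran from adjusted p = 0.0225 to 0.159. With DESeq2 the calls of Psmg1 (adjusted p = 0.085) and Psmg3 (0.0999) were lost, and with no low-count filter that of Psmg1 (0.0612). Of the 19S chaperones, Psmd5 was called higher at day 14, at 70.6 and 62.7 CPM in WT and 104 and 106 CPM in KO (0.65 ± 0.09, adjusted p = 2.91e-06). Psmd9 was called lower in KO at day 1 (-0.26 ± 0.09, adjusted p = 0.021), a call lost without any 1 of the 4 libraries of that day (-0.30 to -0.21) and at adjusted p = 0.00419 to 0.164 over the alternatives. The day 1 call of Psmd9 was lost with DESeq2 (adjusted p = 0.0746) and with no low-count filter (0.0677) as well. Psmd9 was also called lower in KO at day 28, at 38.2 and 38.2 CPM in WT and 31.1 and 28.7 CPM in KO (-0.36 ± 0.09, adjusted p = 0.00314). Exons of Psmd9 share 1849 of their 7248 bases with Gm26745 on the opposite strand. Psmd10 was not called between the lines at any day. Psmg4 fell in WT from 17.9 and 16.5 CPM at day 1 to 12.1 and 11.5 CPM at day 14 (-0.55 ± 0.14, adjusted p = 0.00356).

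Per kilobase of exon, averaged over the libraries, the most abundant members were Psmc3 at 113 CPM per kilobase, Psmd4 at 101 and Psmd7 at 88.0. The least abundant members tested were Psmb9 at 1.86 CPM per kilobase, Psmf1 at 2.71 and Psmg3 at 3.59. The members not tested were Psma8, the alpha subunit of the testis form, with 0 or 1 counts per library, and Psmb11, the beta5 form of the thymus cortex, with 0 to 5 counts. At this depth, neither could be told from 0 in most libraries.

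Other genes of the pathway were taken from lists. Of 12 tested co-factors and regulators that bind the proteasome, 4, 6 and 3 were called higher in KO at days 1, 14 and 28 and 3, 2 and 3 lower. The shares called higher, 33.3%, 50% and 25%, stand beside 19.5%, 23.8% and 19.8% over all genes. The 3, 2 and 3 of 12 called lower stand beside 20.8%, 25.9% and 21.2%. At day 28 both directions lay near those over all genes. Uchl5, a deubiquitinase of the 19S particle, stood at 56.2 and 48.7 CPM in WT and 114 and 116 CPM in KO at day 14 (1.12 ± 0.08, adjusted p = 6.04e-10). Its direction was that of the 19S subunits at the same day.

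Of 16 tested genes of the NFE2L1 pathway and of ubiquitin delivery, 6, 5 and 4 were called higher in KO at the 3 days and 4, 2 and 1 lower. The shares called higher, 37.5%, 31.2% and 25%, stand beside 19.5%, 23.8% and 19.8% over all genes. The 4, 2 and 1 of 16 called lower stand beside 20.8%, 25.9% and 21.2% over all genes. Nfe2l1 itself stood at 654 and 644, 703 and 703, and 767 and 770 CPM in WT, and at 521 and 519, 365 and 361, and 901 and 873 CPM in KO. Its KO libraries were lowest at day 14, where the core and 19S subunits were highest, and highest at day 28. Nfe2l1 rose in KO from day 14 to day 28 by 1.29 ± 0.06 (adjusted p = 1.28e-13), and this change exceeded that in WT by 1.16 ± 0.08 (adjusted p = 9.91e-10). NFE2L1 is controlled largely as a protein, and the part of its RNA in these results was not tested. The 4 core and 19S subunits with TGACNNNGC in the window shown above (Psmb5, Psmb6, Psmc6 and Psmd12) had a median log2 fold change of 0.50 at day 14, and the 21 with a window and no match had 0.84.

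Of 10 interferon regulators and antigen processing genes, 7 rose and 1 fell in WT from day 1 to day 14, and 10 rose from day 14 to day 28. In KO, 5 rose and 1 fell, and then 7 rose and 1 fell. The shares that rose, 70% and 100% in WT and 50% and 70% in KO, stand beside 18.2%, 17.9%, 19.4% and 25.6% over all genes. The shares that fell, 10% and 0% in WT and 10% and 10% in KO, stand beside 15.9%, 16.8%, 18% and 25.1%. Between the lines, 4, 2 and 3 were higher in KO at days 1, 14 and 28, and 2, 3 and 5 lower. The shares higher, 40%, 20% and 30%, stand beside 19.5%, 23.8% and 19.8% over all genes. The shares lower, 20%, 30% and 50%, stand beside 20.8%, 25.9% and 21.2%, so both directions lay near those over all genes at day 14. Irf9, a subunit of the interferon-activated factor ISGF3, stood at 47.9 and 46.2 CPM in WT and 13.2 and 15.9 CPM in KO at day 14 (-1.69 ± 0.11, adjusted p = 8.29e-11). Nlrc5, a transactivator of class I antigen presentation genes, went the other way, at 27.8 and 27.5 CPM in WT and 80.0 and 77.0 CPM in KO at day 14 (1.5 ± 0.11, adjusted p = 4.6e-10). Tap1, which moves peptides into the endoplasmic reticulum, rose from day 1 to day 14 in both lines, by 1.08 ± 0.10 in WT (adjusted p = 6.59e-08) and 1.12 ± 0.10 in KO (adjusted p = 1.46e-08).

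Blood and immune cells carry high immunoproteasome levels, so their markers were counted beside these results. The 10 blood and immune markers summed to 10.4 to 26.5 CPM over the 12 libraries, and 1 or 2 of them were at 0 in each group. At day 1 the sums were 13.7 to 16.5 CPM in WT and 10.4 to 14.6 CPM in KO, at day 14 15.7 to 26.5 and 13.4 to 13.5, and at day 28 14.6 to 15.4 and 14.3 to 14.9. Cd3e was at 0 in every library and Ptprc stood at 0.98 to 3.24 CPM. Of the 6 tested, 0 were called higher in KO at any day and 1, 2 and 0 lower at the 3 days. The shares called lower, 16.7%, 33.3% and 0%, stand beside 20.8%, 25.9% and 21.2% over all genes. Their median log2 fold changes were -0.24, -0.61 and 0.07. Cd74 stood at 2.86 and 3.48 CPM in WT and 1.79 and 1.18 CPM in KO at day 1. The part of the blood and immune markers in the results was not tested. The 4 endothelial markers summed to 1.89 to 3.74, 3.70 to 4.89 and 5.30 to 5.70 CPM in WT at the 3 days and to 1.18 to 1.62, 1.37 to 2.17 and 1.36 to 1.64 CPM in KO, with 0 of them at 0 in any group. Like Psmb8, these sums were lower in KO at each day and higher at later days in WT, but that rise lay mostly in Kdr. In WT, Kdr stood at 0.520 and 1.12 CPM at day 1. From day 1 to day 28, Pecam1 in WT went from 0.715 and 1.31 to 0.349 and 0.495 CPM. Cdh5 went from 0.455 and 1.05 to 0.279 and 0.330 CPM, on 4 to 20 counts per WT library for both genes. Tek stood at 0.195 to 0.660 CPM in WT. Kdr stood at 4.47 and 4.21 CPM in WT and 0.519 and 0.407 CPM in KO at day 28, and the part of these genes in the results was not tested. The 11 osteoblast and osteocyte markers summed to 6132 to 6179 CPM at day 1, 8145 to 8657 at day 14 and 2548 to 3795 at day 28 in WT, with 0, 0 and 1 of them at 0 in the group. In KO they summed to 7514 to 7614, 19506 to 19851 and 2075 to 3313 CPM, with 1, 0 and 1 at 0. Like the core and 19S subunits, these sums were highest in KO at day 14, but Col1a1 made up most of them, at 17935 and 17684 CPM there. Of the 10 markers tested, 4 were called higher and 3 lower in KO at day 14, against 23.8% higher and 25.9% lower over all genes. Their median log2 fold change was -0.32, and Dmp1 and Pdpn were among the lower. Besides Col1a1, Runx2 stood higher in KO at day 14, at 342 and 314 CPM against 177 and 170 in WT. So did Sp7 (527 and 512 against 262 and 236 CPM) and Alpl (991 and 942 against 737 and 662 CPM). The part of these markers in the results was not tested.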

How the data were processed

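Per the submitters' processing notes, the authors aligned reads with STAR to mm10 and deposited raw counts per gene made with featureCounts of Subread; edgeR is also named. For versions, annotation and strand setting, the sources used here give nothing. The members and lists were chosen with earlier results of these data known. From 32248 rows, 3 transgene rows were removed. R 4.3.3, edgeR 4.0.16 and limma 3.58.1 were used, with filterByExpr (minimum count 10, minimum total 15), TMM factors (0.942 to 1.05) and 1 quasi-likelihood fit over 12 libraries with 6 residual degrees of freedom. The 9 comparisons were tested two-sided and adjusted over 13772 genes. The standard error was taken as the absolute log2 fold change over the root of the F statistic. Alternatives were DESeq2 1.42.0 and its size factors, library totals, no filter, a replicate block, only the groups compared, and each library left out.

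Members named in the text were the 5 immunoproteasome genes and Psmb5, Psmb6 and Psmb7. So were the 5 highest and 5 lowest called fold changes of each comparison, and the members left out by the filter. Psmd10 and Psme4 were added to complete their groups. Single fold changes were followed through the alternatives only where this rule named them, so those of Psmd10 and Psme4 were not. Pathway genes are named where called with an absolute log2 fold change above 1, and Nfe2l1 is given at each day. Single cell type markers were chosen after their values were seen. Lengths, overlaps and coordinates are from GENCODE vM21, which held 97.5% of the symbols. Chi-square per gene between the 2 libraries of a group was 1.42 to 10.4, so no pair was 1 library in 2 copies. The test was checked on simulated data. No promoter window was found for Psma8, Psmb1, Psmb2, Psmb7, Psmc3, Psmd3, Psmd7 and Psmg2.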

Additional observations from a re-analysis of the deposited data

Results flagged for a closer look

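Two-sided interaction tests in edgeR called a difference between the lines in the change over time for 23 values of named members. In the change from day 1 to day 14, KO exceeded WT (log2) for Psmb8 by 1.66, Psmd11 by 0.78, Psma5 by 0.75, Psma7 by 0.65, Psmb7 by 0.59, Psma4 by 0.57, Psma2 by 0.56, Psma1 by 0.39, Psma3 by 0.37, Psmc3 by 0.36, Psmc4 by 0.32 and Psmd6 by 0.32. Psma1, Psma3, Psmc4 and Psmd6 lost the call with DESeq2 and without each of 5 to 7 of the 12 libraries in turn. For the other 8 the call held in all 18 alternatives.

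In the change from day 14 to day 28 the difference was -0.90 for Psma7, -0.83 for Psma4, -0.77 for Psma5, -0.75 for Psmc5, -0.72 for Psmc3, -0.41 for Psmd13, -0.41 for Psmd5, -0.40 for Psmb7, -0.39 for Psmb4, -0.36 for Psma1 and -0.29 for Psmb1. Psmd13, Psmd5, Psmb4, Psma1 and Psmb1 lost the call without 3 to 5 of the 12 libraries in turn, and the other 6 kept it in all 18 alternatives. Psmb8 was the only immunoproteasome member among these values. From day 14 to day 28, Psma1 also lost its call with DESeq2 (adjusted p = 0.0759). Psma1 and Psmb1 lost theirs with only the groups compared (adjusted p = 0.062 and 0.0631).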

How the results depend on the processing

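Of 161 named fold changes, 121 were called, 0 of these changed sign under any of the 18 alternatives, and 75 kept their call in all of them. The number of members called held within 1.5 times except as follows. For WT from day 14 to day 28 (11) it was 7 with DESeq2 and 6 with only the groups compared, and leaving out 1 library gave 6 to 12. For KO against WT at day 28 (30) it was 17 with only the groups compared. For KO from day 1 to day 14 (18) it was 28 with only the groups compared, and leaving out 1 library gave 11 to 23; the cause was not tested.

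The sign changes were of 16 values not called. Psme2 gave 0.0063, 0.0062 and 0.0075 in WT from day 14 to day 28 with DESeq2's size factors, library totals and DESeq2, -0.036 at day 28 with library totals and 0.0038 at day 1 with no filter. Leaving out 1 library gave Psme2 from -0.054 to 0.045 at day 1, -0.0205 to 0.14 at day 28, -0.14 to 0.21 in KO from day 1 to 14 and -0.086 to 0.097 in WT from day 14 to 28. It gave Psmb9 from -0.19 to 0.16 at day 1, -0.34 to 0.16 in KO from day 14 to 28 and -0.049 to 0.52 in the difference between the lines over those days. It gave Psmb10 from -0.056 to 0.43 at day 14, -0.37 to 0.11 in KO from day 1 to 14, -0.033 to 0.45 in KO and -0.0303 to 0.37 in WT from day 14 to 28, and -0.23 to 0.25 in the difference. It gave Psme1 from -0.16 to 0.12 in KO from day 14 to 28 and -0.061 to 0.22 in the difference, Psmb6 from -0.055 to 0.053 in WT from day 1 to 14, and Psmb7 from -0.055 to 0.027 in WT from day 14 to 28.

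Same-numbered libraries deviated together little: of 15 pairs of groups, correlations ran from -0.04 to 0.11 and 1 was over 0.1. That 1 pair was WT D28 with KO D28, 2 groups of the same day. These 2 groups also had the largest chi-square per gene between their libraries, 10.4 and 5.67. A batch shared by the lines at day 28 alone was not tested. With the replicate number as a block, 28 members were called at day 28 (24 higher, 4 lower), and among named values the block ended 1 call, Psmd2 at day 28 (-0.16, adjusted p = 0.0521). Counts below about 40 per library, as for Psmb8 in KO at day 1, limit precision. With 2 libraries a group, leaving 1 out assumes that the remaining one varies like the other groups.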
